A study of Mus musculus with 20 samples.

Results

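The 4 genes Pou5f1 (which encodes Oct4), Sox2, Klf4 and Myc encode the transcription factors with which fibroblasts were first turned into pluripotent cells. They were taken by gene symbol from both expression tables of a mouse RNA-seq series of 20 libraries, and all 4 were found in each table. They are 4 of 22102 entries in the table of a differentiation time course (12 libraries) and 4 of 42115 entries with values in the table of cell lines (8 libraries). All 4 passed the filters on low values, which kept 14108 and 16773 entries for testing.

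Oct4, a POU-domain factor, and Sox2, an HMG-box factor, bind next to each other at composite sites in the enhancers of pluripotency genes, their own among them. Klf4 is a zinc-finger factor that works downstream of LIF and Stat3 in naive stem cells and binds CACCC and GC-rich DNA, and Klf2 and Klf5 can stand in for it. Myc is a basic helix-loop-helix factor that pairs with Max on E-boxes and drives growth and ribosome production, and its paralog Mycn can replace it in stem cells. Delivery of all of them by retrovirus turns a small share of fibroblasts into induced pluripotent cells, in which the viral copies usually fall silent.

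The time course asked what the long noncoding RNA Braveheart does while embryonic stem cells turn into heart muscle. E14 embryonic stem cells (strain 129/Ola) carried a lentiviral pLKO.1 hairpin, either scrambled, hairpin A or hairpin B, and were sampled at days 0, 3, 6 and 9 of directed cardiomyocyte differentiation through embryoid bodies with VEGF, Activin A and BMP4. The scrambled hairpin was the control and hairpins A and B were the depleted arm. Each hairpin gave 1 library a day, the cells had been selected with puromycin, and the level of Braveheart was not analysed here. The cell line set was untreated. It held wild-type mouse embryonic stem cells (mESC) of line E14 (129/Ola, 2 libraries) and line v6.5 (129/svJae x C57BL/6, 2 libraries), and Oct4-GFP mouse embryonic fibroblasts (MEF, 129/svJae x C57BL/6, 1 library). From these MEF came the partially reprogrammed lines 11.3 (MCV6) and 11.5 (MCV8), with 1 library each, and the fully reprogrammed induced pluripotent line miPS MCV8.1, with 1 library. All 3 reprogrammed lines had the same strain background and Oct4-GFP allele as the MEF, and carried retroviral Oct4, Sox2, Klf4 and c-myc transgenes. Each was a single line, so line and state of reprogramming cannot be told apart. Values per gene do not separate retroviral from endogenous transcripts, and the 2 cannot be told apart here. The labels state that mESC and miPS cells grew on irradiated MEF and were pre-plated before harvest, and that lines 11.3 and 11.5 grew without feeders. Nothing in the labels says that replicate libraries came from separate cultures, and the p-values reflect no more than how these libraries scatter.

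Time course levels are in FPKM, which counts fragments per length and depth. The steps of low FPKM values implied about 6740000 to 11000000 reads a library, at which 3 reads on a 1 kb transcript amount to 0.273 to 0.445 FPKM. Cell line libraries held 7536503 to 23662593 expected counts, and 3 counts there amount to 0.127 to 0.398 CPM (counts scaled to library total). Among the fibroblast markers tested, 15 of 15 were lower in mESC than in MEF. Of all entries, 28.6% differed there in either direction by edgeR (adjusted p under 0.05). The summed level of the 16 markers listed was 29742 TPM (transcripts scaled to library total) in MEF and 999 to 1245 in mESC. It was 1287 in miPS and 1861 to 2370 in the partially reprogrammed lines. The time course libraries of hairpin B stood apart at days 6 and 9. Cardiomyocyte markers, summed over 10 genes, reached 436 FPKM in scrambled, 76.8 in hairpin A and 15.1 in hairpin B cells at day 9, so that member tests and list counts over days are also given without hairpin B at days 6 and 9, a choice made after the data were seen. Comparisons of hairpin B with hairpin A rest on those libraries.

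In the mm9 coordinates of the deposited table, Pou5f1 (ENSMUSG00000024406) lies at chr17:35642984-35647722, Sox2 (ENSMUSG00000074637) at chr3:34548927-34551382, Klf4 (ENSMUSG00000003032) at chr4:55540009-55545347 and Myc (ENSMUSG00000022346) at chr15:61816896-61821916. Sox2 sits inside the locus of the noncoding gene Sox2ot (chr3:34459303-34576915). Library kits are not stated to keep strand, so reads of Sox2 and of overlapping Sox2ot exons cannot be told apart. RefSeq names 7 loci as copies of Pou5f1. Of these, 2 were in the cell line table and 1 in the time course table, and reads shared with such copies make the level of Pou5f1 uncertain by the amount the counting moved.

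Since the factors regulate one another, the 250 bases before the annotated start of each gene in the RefSeq promoter table (GRCm38.p6) are shown for the 3 members it matched, Pou5f1 (chr17:35505782-35506031, plus strand), Sox2 (chr3:34649745-34649994, plus strand) and Klf4 (chr4:55532476-55532725, minus strand, printed as transcribed). Capitals mark matches, on either strand, to the octamer start ATGCAAA (a POU motif), the SOX core CATTGT, the CACCC box CCACCC and the E-box CACGTG.
Pou5f1: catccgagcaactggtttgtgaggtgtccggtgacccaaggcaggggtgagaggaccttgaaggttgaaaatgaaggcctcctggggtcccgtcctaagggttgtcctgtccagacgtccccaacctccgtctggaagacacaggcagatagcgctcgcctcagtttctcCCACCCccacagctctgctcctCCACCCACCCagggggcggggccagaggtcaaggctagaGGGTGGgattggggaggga
Sox2: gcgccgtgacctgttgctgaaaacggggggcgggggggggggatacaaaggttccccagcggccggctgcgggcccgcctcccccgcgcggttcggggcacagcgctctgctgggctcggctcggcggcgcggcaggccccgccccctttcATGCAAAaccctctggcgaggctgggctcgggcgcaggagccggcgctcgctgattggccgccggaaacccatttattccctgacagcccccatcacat
Klf4: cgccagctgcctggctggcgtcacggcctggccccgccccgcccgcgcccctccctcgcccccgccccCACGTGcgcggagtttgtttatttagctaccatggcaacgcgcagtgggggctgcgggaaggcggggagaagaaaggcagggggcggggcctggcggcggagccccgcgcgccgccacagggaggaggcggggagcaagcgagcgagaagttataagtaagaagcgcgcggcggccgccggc

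The windows held different motifs. Pou5f1 had 4 CACCC boxes, of which 2 overlap, Sox2 had 1 octamer start and Klf4 had 1 E-box. The SOX core was in none of the 3 windows. Among 32851 RefSeq promoter windows of the same length, 28.1% held a CACCC box, 4.12% an octamer start, 6.02% an E-box and 10.7% a SOX core. A GC box, GGGCGG, which is not capitalised, was present once in Pou5f1, 2 times in Sox2 and 4 times in Klf4, and in 32.7% of all windows. All 3 windows were richer in G and C than the median window (52.4%), at 62% for Pou5f1, 72% for Sox2 and 74% for Klf4. CpG dinucleotides numbered 8, 27 and 32, against a median of 6. These matches are letters in a window and were not tied to any binding in the series.

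In the cell line set, Pou5f1 and Sox2 were near background in MEF and abundant in every other line, Klf4 and Myc were measured in all lines, and Pou5f1, Klf4 and Myc were highest in the partially reprogrammed lines. Levels are given in TPM, which is per length, so they can be set beside each other between genes.

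Pou5f1 stood at 943 and 825 TPM in E14 replicates 1 and 2, 793 and 1223 TPM in v6.5 replicates 1 and 2, 1152 TPM in miPS, 6491 TPM in line 11.3, 6911 TPM in line 11.5 and 2.04 TPM in MEF. The partially reprogrammed lines were the highest and did not overlap with any other library, while miPS lay within the range of mESC. The mESC mean was 946 TPM ± 196 (SD, n = 4), and the mean of lines 11.3 and 11.5 was 7.08 times as high. In MEF the deposited expected count of Pou5f1 was 0, although its deposited TPM was 2.04 (authors' bounds 0.629 to 3.74), so the deposited quantities differ there. Set against a floor of 3 counts in MEF, the mean CPM of Pou5f1 was 2210-fold higher in mESC. It was 17568-fold higher in the partially reprogrammed lines. By the deposited TPM, the ratios of these means to MEF were smaller, at 464 and 3286, so the fold depends on the quantity used.

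Sox2 varied most within groups. It stood at 395 and 242 TPM in the E14 replicates, 647 and 204 TPM in the v6.5 replicates, 358 TPM in miPS, 962 TPM in line 11.3, 166 TPM in line 11.5 and 1.14 TPM (8.50 expected counts) in MEF. Line 11.3 was the highest of the 8 libraries and line 11.5 was below every mESC library, a ratio of 5.78 between the 2 lines. For the other members the same ratio of line 11.3 to line 11.5 was 0.939 (Pou5f1), 0.985 (Klf4) and 0.702 (Myc). Within v6.5, replicate 1 had 3.17 times the Sox2 and 2.40 times the Klf4 of replicate 2, but 0.648 times the Pou5f1.

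Klf4 stood at 152 and 102 TPM in the E14 replicates, 176 and 73.3 TPM in the v6.5 replicates, 247 TPM in miPS, 2495 TPM in line 11.3, 2533 TPM in line 11.5 and 56.3 TPM in MEF. MEF was the lowest library, but close to v6.5 replicate 2. The mESC mean was 126 TPM ± 46.5 (SD, n = 4), and the 2 partially reprogrammed lines lay far above all mESC libraries, at 44.6 times the MEF level.

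Myc had another order. It was lowest in mESC, at 18.5 and 15.2 TPM in the E14 replicates and 25.0 and 22.1 TPM in the v6.5 replicates, followed by 55.0 TPM in miPS, 112 TPM in MEF, 1405 TPM in line 11.3 and 2002 TPM in line 11.5. No group overlapped with another. The MEF library held 5.57 times the mESC mean of 20.2 TPM ± 4.28 (SD, n = 4), and the mean of the partially reprogrammed lines was 84.4 times that mESC mean.

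**Figure D1:**
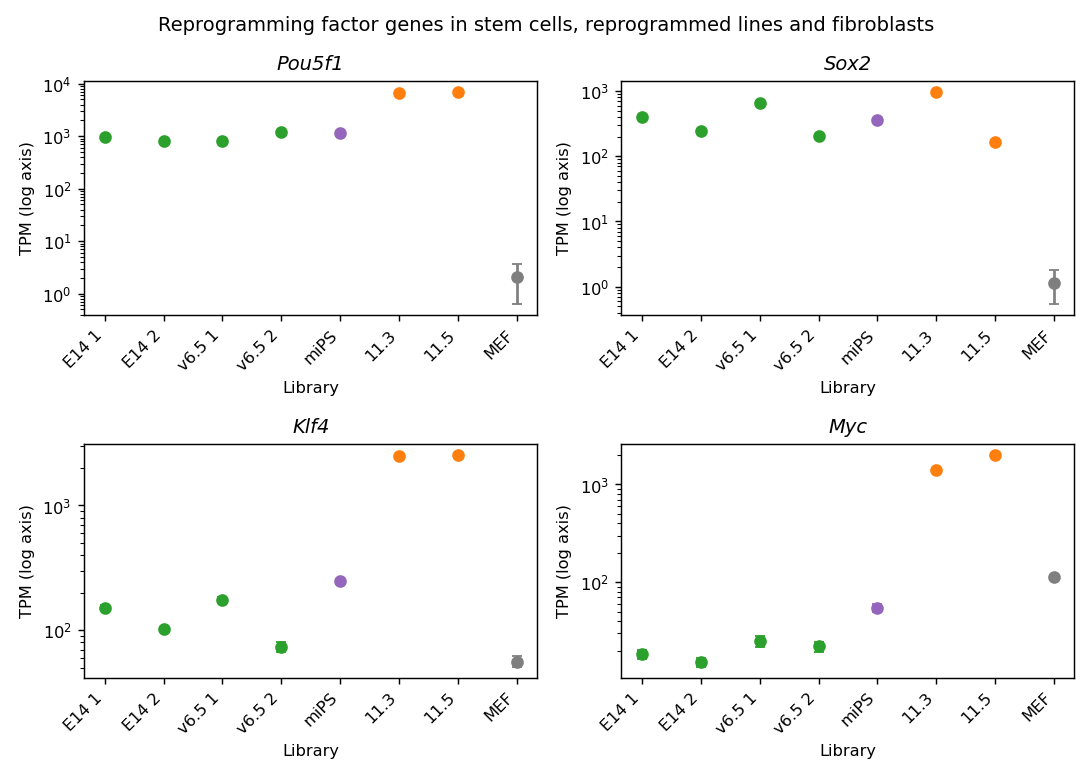
TPM of each gene (log axis, a different range in each panel) in the 8 cell line libraries, 1 point a library, with bars for the authors' lower and upper bounds where they exceed the point. Lines 11.3 and 11.5 sit above all other libraries for Pou5f1, Klf4 and Myc, lie far apart for Sox2, and MEF is lowest for all but Myc.

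Summed over the 4 genes, TPM reached 11353 and 11612 in lines 11.3 and 11.5. The sum was 1185 to 1641 in mESC, 1812 in miPS and 172 in MEF. The make-up of the sum changed as well. Pou5f1 made up 48.3% to 80.3% of it in mESC and Myc 1.23% to 1.52%, whereas in line 11.5 Pou5f1 made up 59.5%, Klf4 21.8%, Myc 17.2% and Sox2 1.43%. In MEF, Myc was 65.4% and Klf4 32.8%. Pou5f1 exceeded Sox2 by 1.23 to 6.00 times in mESC, 3.22 times in miPS, 6.75 times in line 11.3 and 41.5 times in line 11.5.

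Tests on the counts (edgeR quasi-likelihood, all 8 libraries in 1 fit, Benjamini-Hochberg over all 16773 entries) gave the following. Between mESC and MEF, 28.6% of entries passed an adjusted p of 0.05. Pou5f1 (adjusted p = 0.00100) and Sox2 (log2 difference 8.55 ± 1.83 SE, adjusted p = 0.0197) were higher in mESC. Myc was lower in mESC (-2.84 ± 0.29, adjusted p = 0.00241). Klf4 was not called (0.90 ± 0.65, adjusted p = 0.328), but was called without v6.5 replicate 2 (1.21, adjusted p = 0.0211). Irradiated MEF were the feeders of the mESC cultures, and the fibroblast collagen Col1a1 was at 56.7 to 87.2 TPM in mESC against 8103 TPM in MEF. The part of such RNA in the Klf4 and Myc of mESC was not tested.

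Against MEF, 13.8% of entries were called in the partially reprogrammed lines and 4.95% were called higher, and all 4 members were higher. Klf4 differed by 5.37 ± 0.90 (adjusted p = 0.0148), Myc by 3.75 ± 0.44 (adjusted p = 0.00521) and Sox2 by 9.23 ± 1.90 (adjusted p = 0.0273), and the adjusted p of Pou5f1 was 0.000759. The Sox2 call was lost without E14 replicate 1 (adjusted p = 0.0554) or E14 replicate 2 (adjusted p = 0.0529), which enter this comparison only through the shared estimate of spread. Against mESC, 29.7% of entries were called, 13.6% were called higher, and 3 of the 4 members were higher in the partially reprogrammed lines. Myc led with 6.59 ± 0.28 (adjusted p = 0.000595), followed by Klf4 with 4.47 ± 0.48 (adjusted p = 0.00250) and Pou5f1 with 2.97 ± 0.20 (adjusted p = 0.00108). Sox2 was not called (0.69 ± 0.78, adjusted p = 0.534), and its difference turned to -1.17 without line 11.3.

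In miPS the order of the members was that of mESC. Against mESC, 0.0298% of entries (5) were called by edgeR, 1334 had an unadjusted p under 0.05, and no member was among those called. The largest difference of the 4 was that of Myc (1.58 ± 0.30, adjusted p = 0.251), which passed with DESeq2 (1.56, adjusted p = 0.0341) and without v6.5 replicate 1 (1.71, adjusted p = 0.0448). Klf4 (1.08 ± 0.57, adjusted p = 0.698) passed without v6.5 replicate 1 as well (1.63, adjusted p = 0.0493). Pou5f1 differed by 0.56 ± 0.25 (adjusted p = 0.663) and Sox2 by -0.01 ± 1.03 (adjusted p = 1.00). With 1 miPS library these tests assume that it varies like the replicated lines. The miPS line was lower than the partially reprogrammed lines in Myc (-5.01 ± 0.47, adjusted p = 0.00561) and Pou5f1 (-2.41 ± 0.33, adjusted p = 0.0114), in a comparison in which 9.88% of entries were called and 2.02% were called lower. The Pou5f1 call was lost without E14 replicate 1 (adjusted p = 0.0632) or 2 (adjusted p = 0.0622). Klf4 was just short of the threshold (-3.39 ± 0.80, adjusted p = 0.0509) and passed with DESeq2 (adjusted p = 7.22e-05) and without v6.5 replicate 1 (adjusted p = 0.00377) or 2 (adjusted p = 0.00379), and Sox2 was not called (-0.69 ± 1.16, adjusted p = 0.783). The comparisons share the mESC, MEF and partially reprogrammed libraries with one another. Between E14 and v6.5, 0.489% of entries were called and none of the 4, with adjusted p-values of 0.298 to 0.833.

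Close relatives of Myc and Klf4 were lower in the partially reprogrammed lines than in mESC, where Myc and Klf4 themselves were higher in those lines. Mycn was at 212 and 181 TPM in the E14 replicates, 162 and 136 TPM in the v6.5 replicates, 123 TPM in miPS, 12.6 TPM in line 11.3, 4.23 TPM in line 11.5 and 2.28 TPM in MEF. It was thus highest in the stem cell libraries, where Myc was lowest. Mycn exceeded Myc by 6.18 to 11.9 times in mESC and 2.23 times in miPS, while Myc exceeded Mycn by 112 times in line 11.3, 473 times in line 11.5 and 49.4 times in MEF. The test between partially reprogrammed lines and mESC gave -4.23 ± 0.58 for Mycn (adjusted p = 0.00503). Of 13 tested genes of the Myc and Max network, which includes Myc, 3 were higher and 2 lower in that comparison. It called 29.7% of all entries in either direction and 13.6% higher. Max, the shared partner, was at 38.7 to 70.9 TPM in mESC and at 85.7 and 89.1 TPM in lines 11.3 and 11.5. Mycl fell below mESC too (-4.81 ± 1.01, adjusted p = 0.0175), and Mxd4, an antagonist that competes for Max, was higher (2.02 ± 0.56, adjusted p = 0.0405), with 39.7 TPM in line 11.3 but 9.75 TPM in line 11.5.

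Klf2 was at 127 to 317 TPM in mESC and 288 TPM in miPS, against 2.95 and 1.84 TPM in lines 11.3 and 11.5 and 52.2 TPM in MEF. It was lower in the partially reprogrammed lines than in mESC (-6.33 ± 0.57, adjusted p = 0.0018) and than in MEF (-4.71 ± 0.59, adjusted p = 0.00608). Klf5 was at 57.1 to 104 TPM in mESC, 172 TPM in miPS, 24.1 and 6.38 TPM in lines 11.3 and 11.5 and 10.4 TPM in MEF, and was lower in the partially reprogrammed lines than in mESC (-2.41 ± 0.65, adjusted p = 0.0371). Klf3 had 31.5 to 62.5 TPM in mESC and 95.1 and 84.6 TPM in the partially reprogrammed lines. Of the 14 Klf genes tested, Klf4 among them, 2 were higher and 5 lower in these lines than in mESC. The median difference was -0.43 against -0.05 over all entries. Of all entries, 29.7% were called in either direction and 13.6% higher, so 2 of 14 higher is near the share of all entries.

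Among POU relatives, 1 of 8 tested genes, Pou5f1 itself, was higher in the partially reprogrammed lines than in mESC and 5 were lower. Pou2f1, a widely expressed octamer-binding factor, had the highest mean TPM of the relatives over the 8 libraries, at 28.1 to 42.4 in mESC and 31.3 and 25.6 in lines 11.3 and 11.5. Pou3f1, an epiblast and neural factor, was at 4.28 to 34.4 TPM in mESC and at 0.22 and 0.15 TPM in lines 11.3 and 11.5, and stood just above Pou2f1 in v6.5 replicate 2 (34.4 against 34.2 TPM). Among 15 Sox genes, 5 were lower and none higher. Beside the POU and Sox counts, 29.7% of all entries were called in either direction and 13.6% higher. Sox3, a close paralog of Sox2, was at 2.83 to 37.6 TPM in mESC. It was at 0.24 TPM in both partially reprogrammed lines, beside 0.23 TPM in MEF. Pou3f1 and Sox3 were highest in v6.5 replicate 2, the library with the least Sox2 and Klf4 among mESC.

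**Figure D2:**
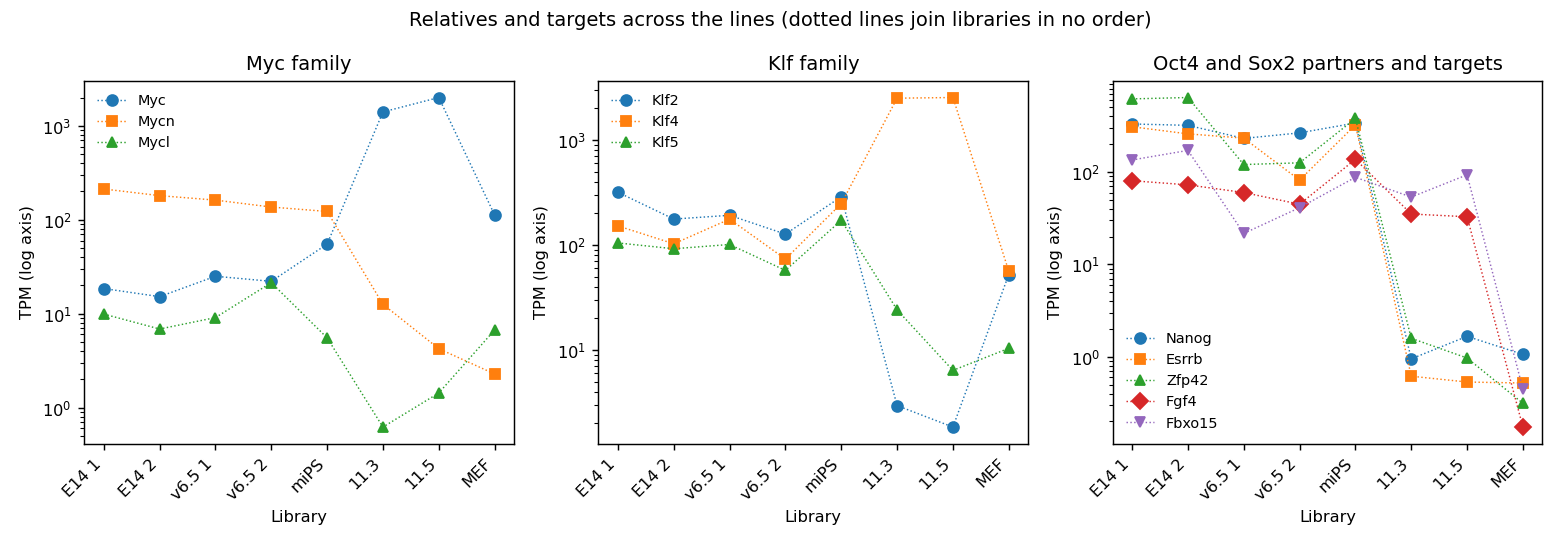
TPM (log axis) of Myc, Klf4, their closest relatives and 5 genes of the list of Oct4 and Sox2 partners and targets in the 8 cell line libraries. Dotted lines only guide the eye. Myc and Klf4 rise in lines 11.3 and 11.5 where Mycn, Klf2 and Klf5 are low, and Nanog, Esrrb and Zfp42 are near background there while Fgf4 and Fbxo15 are not.

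Genes that partner with Oct4 and Sox2 or carry their composite sites did not follow the level of Pou5f1 over these lines. Of 18 tested, 17 were higher in mESC than in MEF and none was lower, where 28.6% of all entries were called in either direction. In the partially reprogrammed lines, where Pou5f1 was 7.08 times its mESC mean, 13 of the 18 were lower than in mESC and none higher. The median difference was -6.79 against -0.05 over all entries, of which 29.7% were called in either direction. Esrrb, an orphan nuclear receptor of naive cells, was at 81.7 to 309 TPM in mESC and at 0.62 and 0.53 TPM in lines 11.3 and 11.5. Lefty1, a Nodal antagonist, was at 213 to 1029 TPM in mESC and at 0.42 and 0.23 TPM in those lines. Tcl1, a coactivator of Akt, was at 13.0 to 76.3 TPM in mESC and at 1.07 and 1.08 TPM. Prdm14, a PR-domain regulator of the germ line and naive state, was at 4.04 to 12.7 TPM and then 0.08 TPM in both. MEF held nearly the same low TPM, 1.06 for Tcl1 and 0.08 for Prdm14. Of the 18 genes, 3 in line 11.3, 3 in line 11.5 and 13 in MEF had an expected count of 0. Such low TPM are therefore near the floor. Against MEF, 9 of the 18 were higher in the partially reprogrammed lines and 1, the T-box factor Tbx3, was lower. Of all entries, 4.95% were called higher there.

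Of the 18 genes, 5 were not called between the partially reprogrammed lines and mESC. These were Fgf4, Fbxo15, Nr0b1, Sall4 and Nr5a2, named after their values were seen. Fgf4, a growth factor whose enhancer is a classic Oct4 and Sox2 site, was at 35.1 TPM in line 11.3, 32.8 TPM in line 11.5, 44.8 to 80.5 TPM in mESC and 0.17 TPM in MEF. Fbxo15, an F-box gene with such an enhancer, was at 53.5 and 93.2 TPM in lines 11.3 and 11.5, within the 21.6 to 171 TPM of mESC, against 0.45 TPM in MEF. The zinc-finger factor Sall4 was at 46.1 and 12.1 TPM, the nuclear receptor Nr0b1 at 85.7 and 27.0 TPM and the nuclear receptor Nr5a2 at 26.3 and 7.52 TPM in lines 11.3 and 11.5. Values of these 3 were lower in line 11.5, while those of Fbxo15 and of Tdgf1, a Nodal coreceptor gene at 18.3 and 90.0 TPM, were higher there. Nanog, also named after its values were seen, was at 231 to 331 TPM in mESC, 339 TPM in miPS, 0.95 and 1.67 TPM in lines 11.3 and 11.5 and 1.06 TPM in MEF. In miPS, 14 of the 18 genes were higher than in the partially reprogrammed lines and none lower, where 9.88% of all entries were called in either direction.

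Target genes of Myc in growth and nucleotide metabolism moved less than Myc. Of 20 tested, 3 were higher in the partially reprogrammed lines than in mESC and 1 was lower. The median difference was 0.11 against -0.05 over all entries. Of all entries, 29.7% were called in either direction and 13.6% higher, so 3 of 20 higher is near the share of all entries. Nme1, a nucleoside diphosphate kinase, was higher (1.06 ± 0.20, adjusted p = 0.0129), as were the lactate dehydrogenase gene Ldha (0.85 ± 0.24, adjusted p = 0.0444) and the RNA polymerase I subunit gene Polr1b (0.72 ± 0.21, adjusted p = 0.0463). The telomerase gene Tert was lower (-1.23 ± 0.30, adjusted p = 0.0266). Between mESC and MEF, where Myc was lower in mESC, 11 of the 20 were higher in mESC and 1, Ccnd2, was lower. That comparison called 28.6% of all entries in either direction.

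Fibroblast markers were followed beside these results. In the partially reprogrammed lines, 8 of 15 tested fibroblast markers were lower and 2, Vim and S100a4, were higher than in mESC. That comparison called 29.7% of all entries in either direction and 13.6% higher. The summed level of these markers in lines 11.3 and 11.5 exceeded that of mESC, while Col1a1 was at 8.33 and 0.07 TPM, and its part in the Klf4 and Myc levels of these lines was not tested. Of the 16 markers listed, 6 in line 11.5 and 2 in line 11.3 had an expected count of 0, although none had a TPM of 0.

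In the time course, Klf4 dropped furthest by day 3 and was below day 0 at all 3 later days. Sox2 values were below day 0 from day 3 and Pou5f1 values from day 6. At days 6 and 9 these 2 genes were further below day 0 in scrambled and hairpin A than in hairpin B cells. Myc values at day 3 were above day 0 in every culture. All levels here are in FPKM, per length. In whole cultures, fewer cells of a type and less RNA per cell cannot be told apart.

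Klf4 in scrambled cells was at 125 FPKM on day 0, 5.93 on day 3, 2.75 on day 6 and 3.34 on day 9. Hairpin A cells had 152, 6.36, 4.08 and 3.47 FPKM on the same days. Hairpin B cells had 279, 4.28, 25.4 and 36.0 FPKM. All 3 cultures dropped between days 0 and 3 with no overlap, by 21.0, 23.8 and 65.2 times, and hairpin B was the highest culture at days 6 and 9. In scrambled and hairpin A cells day 3 lay above days 6 and 9, which overlapped.

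Pou5f1 was at 604, 788, 276 and 98.8 FPKM in scrambled cells on days 0, 3, 6 and 9. It was at 689, 689, 337 and 102 FPKM in hairpin A cells. In hairpin B cells it was at 682, 705, 621 and 602 FPKM. Day 3 values lay at or above those of day 0, with 689 FPKM in hairpin A cells on both days. At day 9, scrambled cells retained 16.3%, hairpin A cells 14.9% and hairpin B cells 88.3% of their day 0 level.

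Sox2 started at nearly the same level in the 3 cultures, 429, 432 and 426 FPKM in scrambled, hairpin A and hairpin B cells. It then stood at 279, 330 and 250 FPKM on day 3, 104, 127 and 329 FPKM on day 6, and 115, 143 and 412 FPKM on day 9. In scrambled and hairpin A cells it was lowest on day 6. Pou5f1 continued to drop between those days, so that Pou5f1 exceeded Sox2 by 2.67 and 2.66 times on day 6 but stood at 0.861 and 0.717 times its level on day 9. Neural progenitor cells also use Sox2. Of 12 markers of these cells, 2, Fabp7 and Zic1, were higher at day 9 than at day 0. Without late hairpin B, 9 of 12 were higher, in a fit that called 35.3% of all entries higher. The summed level of the 12 markers at day 9 was 118 FPKM in scrambled, 138 in hairpin A and 50.6 in hairpin B cells, and its part in the Sox2 level was not tested.

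Myc was at 8.41, 21.3, 17.5 and 12.7 FPKM in scrambled cells, 8.59, 19.0, 14.2 and 15.7 in hairpin A cells, and 13.4, 20.8, 18.4 and 6.21 in hairpin B cells on days 0, 3, 6 and 9. Day 3 was above day 0 in all 3 cultures, by 2.53, 2.21 and 1.56 times. The authors' status field marks the day 9 values of hairpins A and B as low in data. Myc was the least abundant of the 4 on day 0 and exceeded Klf4 on days 3, 6 and 9 in scrambled and hairpin A cells. In hairpin B cells Klf4 exceeded Myc on days 6 (1.38 times) and 9 (5.79 times).

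**Figure D3:**
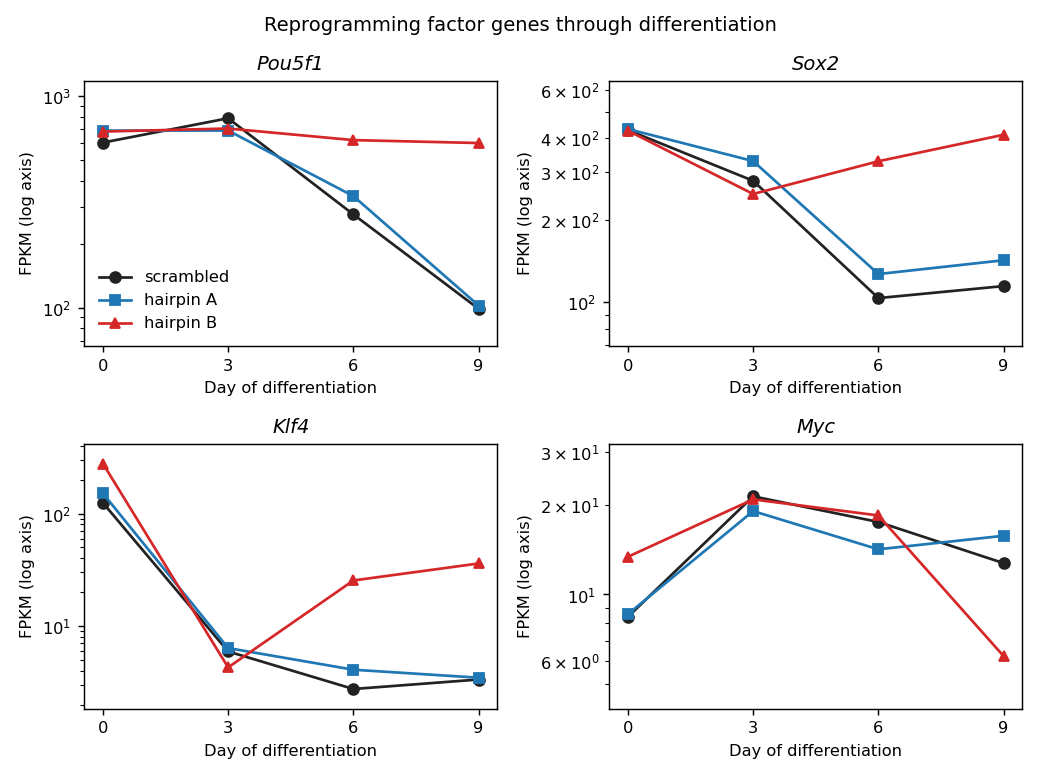
FPKM (log axis, a different range in each panel) of each gene over days 0, 3, 6 and 9, 1 point a library, in cells with the scrambled hairpin or with hairpin A or B. Scrambled and hairpin A lines run close together, and hairpin B lies above them at days 6 and 9 for Pou5f1, Sox2 and Klf4. For Klf4 it also lies above them on day 0, at 279 FPKM against 125 and 152.

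The fit over all 12 libraries (limma on log2 of FPKM plus 1, with depletion as a covariate) called 6.04% of 14108 entries at day 3, 8.68% at day 6 and 16.6% at day 9 against day 0. Of all entries, 2.78%, 3.71% and 6.22% were called lower at those days. Klf4 was the only one of the 4 called in this fit, and it was lower at each day. Its log2 difference was -4.76 ± 0.81 at day 3 (adjusted p = 0.0124), -4.46 ± 0.81 at day 6 (adjusted p = 0.0164) and -4.29 ± 0.81 at day 9 (adjusted p = 0.0176). Leaving out single libraries, among them the scrambled library of day 0, raised these adjusted p-values to as much as 0.0734, 0.0975 and 0.101, with differences of -3.59 or beyond throughout. Pou5f1 was 0.14 ± 0.56 at day 3 (adjusted p = 0.924), -0.76 ± 0.56 at day 6 (adjusted p = 0.368) and -1.84 ± 0.56 at day 9 (adjusted p = 0.0520), which passed with culture as a replicate block (adjusted p = 0.0289). Sox2 was -0.59 ± 0.45 (adjusted p = 0.476), -1.39 ± 0.45 (adjusted p = 0.0805) and -1.18 ± 0.45 (adjusted p = 0.0856). Myc was 0.97 ± 0.29 (adjusted p = 0.0842), 0.69 ± 0.29 (adjusted p = 0.147) and 0.12 ± 0.29 (adjusted p = 0.777).

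Without both late hairpin B libraries, Pou5f1 fell by 1.09 at day 6 (adjusted p = 0.000254) and 2.68 at day 9 (adjusted p = 3.53e-06). Sox2 then fell by 0.59 at day 3 (adjusted p = 0.0106), 1.87 at day 6 (adjusted p = 5.38e-05) and 1.71 at day 9 (adjusted p = 3.47e-05). Klf4 stood at -5.27 at day 9 (adjusted p = 9.82e-06). Myc rose by 0.97 at day 3 (adjusted p = 0.00785) and 0.63 at day 6 (adjusted p = 0.0357) and was not called at day 9 (0.48, adjusted p = 0.0706). In that fit 3812, 6510 and 8429 entries were called at days 3, 6 and 9, in place of 852, 1224 and 2337.

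Fibroblast marker levels moved with the first of these steps. The labels state both a pre-plating that removes feeders and feeder-free culture for these cells. Fibroblast markers summed to 444 to 565 FPKM on day 0 and to 147 to 172 FPKM on day 3. Of 16 markers, 6 were lower at day 3 and none higher. Without late hairpin B, 13 were lower, in a fit that called 12.6% of all entries lower. S100a4 was at 26.5 to 34.3 FPKM on day 0 and at 0 in all 3 cultures on day 3. MEF of the cell line set held Klf4 and Myc, and the part of fibroblast RNA in the day 0 level of Klf4 was not tested.

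Hairpins against scrambled gave no call for any of the 4 genes. At days 0 and 3, 0.0284% of entries (4) were called by limma and 64 had an unadjusted p under 0.05. The 4 differences lay between 0.00 and 0.28, with adjusted p-values of 1. At days 6 and 9, 0.0496% of entries (7) were called and 346 had an unadjusted p under 0.05. There the differences were 1.02 ± 0.66 for Pou5f1, 1.02 ± 0.51 for Sox2, 1.60 ± 0.97 for Klf4 and -0.22 ± 0.36 for Myc, with adjusted p-values of 0.777 to 0.832. Without late hairpin B they were 0.17 for Pou5f1, 0.30 for Sox2, 0.24 for Klf4 and -0.00060 for Myc, with adjusted p-values of 1. Leaving out 1 library at a time gave 0.39 to 1.66 for Pou5f1, 0.64 to 1.40 for Sox2 and 0.83 to 2.36 for Klf4, each lowest without hairpin B of day 9 and highest without hairpin A of day 9. The 2 hairpins differed. At day 9, Pou5f1 in hairpin A was 1.04 times and in hairpin B 6.09 times the scrambled level, Sox2 1.24 and 3.59 times, Klf4 1.04 and 10.8 times and Myc 1.24 and 0.488 times. Hairpin A values lay within 1.48 times of scrambled for all 4 genes on all days.

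Hairpin B exceeded hairpin A at days 6 and 9 in Sox2 by 1.45 ± 0.12 (adjusted p = 0.00114), in Klf4 by 2.71 ± 0.35 (adjusted p = 0.00385) and in Pou5f1 by 1.71 ± 0.36 (adjusted p = 0.0134). In this comparison 35.2% of entries were called and 15.4% were higher in B, so that 3 of 4 members is to be read against a large background. Without the hairpin A library of day 9, the adjusted p was 0.137 for Pou5f1 and 0.0510 for Klf4. Myc was not called (-0.43 ± 0.34, adjusted p = 0.342), and its sign turned without either day 9 library, but it was called without the hairpin B library of day 6 (-1.07, adjusted p = 0.0217). A test added after the data were seen asked whether the difference between hairpins B and A was larger late than at days 0 and 3, and it called 13.4% of entries, 6.42% with a larger difference late. It was larger for Sox2 (1.66 ± 0.16, adjusted p = 0.00619) and Klf4 (2.52 ± 0.50, adjusted p = 0.0274), and not called for Pou5f1 (1.70 ± 0.51, adjusted p = 0.0663) or Myc (-0.78 ± 0.48, adjusted p = 0.283). The interaction call of Klf4 was lost without any of 4 single libraries, with adjusted p-values up to 0.139. Without the hairpin B library of day 6, Pou5f1 (2.48, adjusted p = 0.00156) and Myc (-1.42, adjusted p = 0.0226) were called in that test. The tests of hairpin B against hairpin A drew their spread from the days within early and late. Their standard errors and p-values do not measure scatter between separate cultures of a hairpin. Hairpin B also began apart in Klf4, at 2.24 times the scrambled level on day 0.

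**Figure D4:**
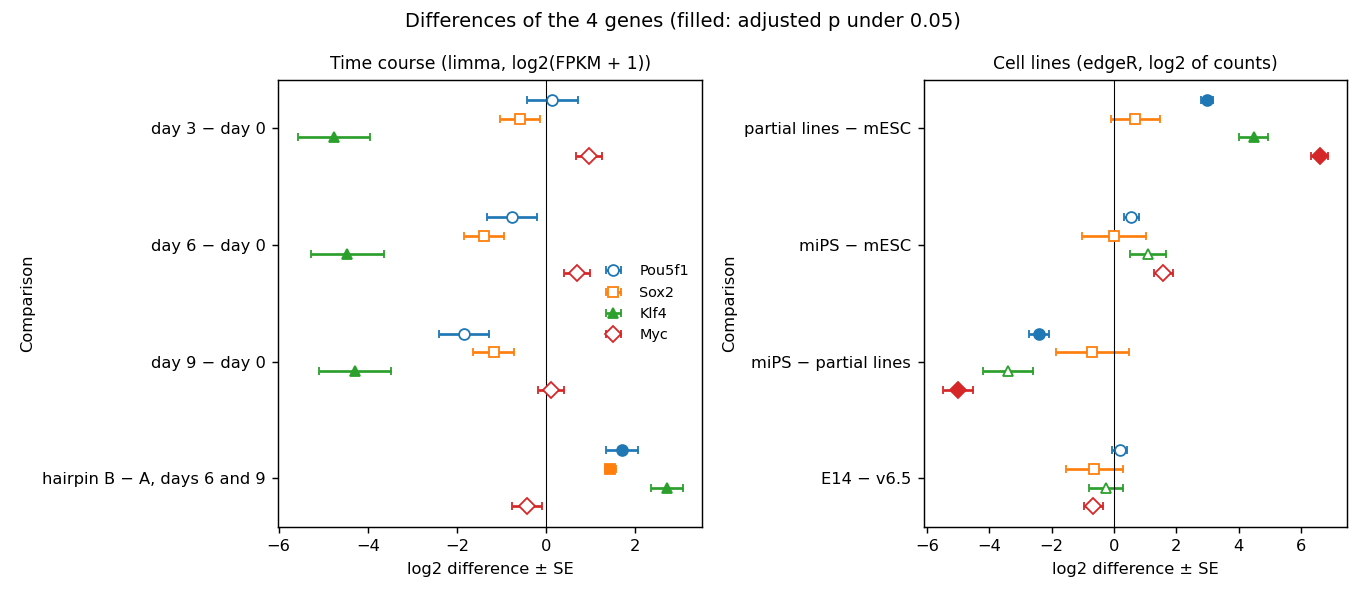
Log2 differences (± SE) of the 4 genes in the time course (left, log2 of FPKM plus 1) and between cell lines (right, log2 of counts), filled where the adjusted p over all entries was under 0.05. Klf4 is filled at every later day. Sox2 lies near 0 with wide bars in the cell line comparisons shown, none of which is with MEF. Myc has the largest difference between partially reprogrammed lines and mESC.

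Relatives of Klf4 took mixed courses over the days. Of 14 Klf genes tested, Klf4 included, 2 were lower and 1 higher at day 3, and 3 were lower and 1 higher at day 6, the higher one being Klf7 at both (0.95 ± 0.18 at day 3, adjusted p = 0.0179). Klf2 was at 202, 102, 20.5 and 9.77 FPKM in scrambled cells on days 0, 3, 6 and 9, at 172, 115, 20.2 and 8.31 in hairpin A cells and at 564, 79.6, 144 and 137 in hairpin B cells. Its decline was slower than that of Klf4, which was near its lowest by day 3, and hairpin B was high on day 0 in Klf2 as in Klf4. Klf5 had the same order on day 0, with 49.5, 38.2 and 132 FPKM in scrambled, hairpin A and hairpin B cells. At day 9, 5 were lower, none higher and 9 not called, the lower ones including Klf4, Klf2 (-3.49 ± 1.00, adjusted p = 0.0456) and Klf9 (-1.90 ± 0.53, adjusted p = 0.0436). Without late hairpin B, 8, 9 and 10 of the 14 were lower at days 3, 6 and 9, and 2, 1 and 1 were higher. Of all entries, that fit called 12.6%, 19% and 24.5% lower and 14.4%, 27.2% and 35.3% higher at those days. Between hairpins B and A at days 6 and 9, 8 of the 14 were higher in B, Klf2 (3.33 ± 0.51, adjusted p = 0.00557) and Klf5 (2.28 ± 0.40, adjusted p = 0.00793) with them. Of 10 tested genes of the LIF and Stat3 pathway, upstream of Klf4, 2 were lower and none higher at day 3, the receptor gene Lifr (-1.40 ± 0.20, adjusted p = 0.00466) and its partner Il6st (-1.18 ± 0.24, adjusted p = 0.0264), and at day 9 Il6st and Stat3 (-1.44 ± 0.36, adjusted p = 0.0351) were lower and the kinase gene Jak2 was higher (0.83 ± 0.21, adjusted p = 0.0347). Without late hairpin B, 7 were lower at day 3 and 8 at day 9, where 1 was higher. Hairpin B was apart on day 0 in this pathway too. Its 10 genes summed to 312 FPKM in scrambled, 360 in hairpin A and 604 in hairpin B cells on that day.

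Mycn was the more abundant Myc gene throughout the time course. It was at 124, 136, 42.1 and 32.7 FPKM in scrambled cells, 101, 98.3, 48.5 and 38.5 in hairpin A cells and 167, 110, 80.5 and 48.7 in hairpin B cells. It was lower at day 6 (-1.21 ± 0.27, adjusted p = 0.0283) and day 9 (-1.67 ± 0.27, adjusted p = 0.0110). The ratio of Mycn to Myc was 11.8 to 14.7 on day 0, and 2.45 in hairpin A, 2.57 in scrambled and 7.83 in hairpin B cells on day 9. Of 20 Myc target genes, 1 was higher at day 3 and 3 were lower at day 9, among them the spermidine synthase gene Srm (-1.26 ± 0.36, adjusted p = 0.0464). Without late hairpin B, 4 were higher and 3 lower at day 3, and 4 were higher and 10 lower at day 9. Of all entries, that fit called 14.4% higher and 12.6% lower at day 3, and 35.3% higher and 24.5% lower at day 9.

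Sox and POU relatives took mixed courses. Of 11 POU genes tested, 2 were higher and 3, Pou5f1 not among them, were lower at day 9. Of all entries, 16.6% were called then in either direction and 6.22% lower. Without late hairpin B, 3 were higher and 7 lower, Pou5f1 among them, where 35.3% of all entries were called higher and 24.5% lower. Pou2f1 was at 16.0, 8.75, 8.57 and 6.65 FPKM in scrambled cells on days 0, 3, 6 and 9. In hairpin B cells it was at 14.4 FPKM on day 9. Pou3f1 was higher at day 3 (2.19 ± 0.33, adjusted p = 0.0075), with 17.1, 81.2, 13.6 and 4.05 FPKM in scrambled cells over the days. Sox3 was higher at day 3 (2.51 ± 0.26, adjusted p = 0.00126), from 3.32 to 27.4 FPKM in scrambled cells, while Sox21 was lower (-2.44 ± 0.52, adjusted p = 0.0299). Sox11, a factor of differentiating cells, was higher at day 9 (2.06 ± 0.58, adjusted p = 0.0431), at 57.5 FPKM in scrambled, 79.3 in hairpin A and 11.2 in hairpin B cells. Sox15, a relative that is also active in stem cells, was higher in hairpin B than in hairpin A at days 6 and 9 (2.52 ± 0.19, adjusted p = 0.00102). Most called Sox genes went the other way there. Of 14 tested, 2, Sox2 and Sox15, were higher in B and 7 were lower, with a median difference of -0.78 against -0.06 over all entries. In that comparison 35.2% of all entries were called and 15.4% were higher in B.

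Partners and targets of Oct4 and Sox2 separated hairpin B from hairpin A at days 6 and 9 in 16 of 17 tested genes, all higher in B, with a median difference of 2.28 against -0.06 over all entries. Zfp42, a zinc-finger gene of naive cells, was at 443 FPKM in scrambled cells on day 0 and 46.2 on day 9, and at 462 FPKM in hairpin B cells on day 9. Esrrb was at 11.8 FPKM in scrambled, 12.0 in hairpin A and 136 in hairpin B cells on day 9. Nr0b1 was higher in B by 2.97 ± 0.27 (adjusted p = 0.00153) and the chromatin factor Utf1 by 2.90 ± 0.42 (adjusted p = 0.00472). At day 9 against day 0 in all cultures, 3 of the 17 were lower and none higher. These were Lefty1 (-3.42 ± 0.71, adjusted p = 0.0226), the methylcytosine dioxygenase gene Tet1 (-1.87 ± 0.51, adjusted p = 0.0404) and Sall4 (-1.27 ± 0.26, adjusted p = 0.0225). Without late hairpin B all 17 were lower at day 9, in a fit that called 24.5% of all entries lower. Endoderm markers went the other way, with 8 of 8 lower in hairpin B than in hairpin A. In that comparison 35.2% of all entries were called and 15.4% were higher in B. Other marker lists were less uniform. Of 9 cardiomyocyte markers 2 were lower in B, and of 12 neural progenitor markers 2 were lower and 1 higher. Of 8 endothelial and smooth muscle markers 3 were lower and 1 higher, and of 16 fibroblast markers 6 were lower and 1 higher.

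The genes most like each member were ranked by Pearson correlation of log2 levels, as a description over 12 libraries that share 3 cultures or over 8 libraries that share lines. In the time course, Pou5f1 was closest to Gm5712 (r = 0.998), which RefSeq names as a copy of Pou5f1 and whose level ran from 5.56 to 48.4 FPKM, then to Rps6ka1 (r = 0.994), L1td1 (r = 0.992), Ap2a1 (r = 0.991) and Nsun2 (r = 0.988). Reads shared with Pou5f1 were not tested as the source of the Gm5712 level. Its expected count was at most 3.71 in any cell line library, including the partially reprogrammed lines with 43767 and 46999 counts of Pou5f1. Sox2 was closest to Nphs1 (r = 0.993), Dppa5a (r = 0.984), Ubl3, Tex2 and Dppa2. Klf4 was closest to Zbtb11 (r = 0.974), Oasl1 (r = 0.968), Cobl, Fry and Arid5b. Myc was closest to Stim2 (r = 0.953), Hnrnpm (r = 0.949), Fen1, Zdhhc3 and Sertad4.

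Over the 8 cell line libraries the lists were different for each member. Pou5f1 was closest to Chchd4 (r = 0.986), B4galnt4, Phf15, Celsr1 and Gm98. Sox2 was closest to Taf6 (r = 0.992), Dact2, Fam136a, Lrwd1 and 2610318N02Rik. Klf4 was closest to Gna14 (r = 0.992), Cisd3, Barx2, Poldip2 and Gltp. Myc was closest to Vax2 (r = 0.996), C1ra, Htra2, Tfap2a and Ugt1a6b. Between members, the correlation in the time course was 0.797 for Pou5f1 and Sox2, 0.810 for Sox2 and Klf4 and -0.61 for Klf4 and Myc. Over the cell lines it was 0.892 for Pou5f1 and Sox2 and 0.873 for Klf4 and Myc. Both Klf4 and Myc were highest in lines 11.3 and 11.5, whereas MEF was the lowest library for Klf4 and above mESC for Myc.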

How the data were processed

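RNA-seq had been done on 20 mouse libraries. Per the submitters' processing notes, time course reads were aligned to mm9 with TopHat 1.14 and Bowtie 0.12.7 and quantified with Cufflinks 1.3.0, and cell line reads were processed with TopHat 1.3 and RSEM. The deposited time course table gives FPKM per library, a ratio of each hairpin to the scrambled library of the day and a status field. The deposited ratio equals that of FPKM plus 1 within a relative difference of 1.42e-06 and was not tested. The deposited cell line table gives expected counts, TPM and the authors' lower and upper bounds of TPM (an upper bound is a signal on the TPM scale), for which no source names a confidence level.

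FPKM were tested as log2(FPKM + 1) with limma 3.58.1 (entries with at least 1 FPKM in 2 libraries). Expected counts were rounded and tested with edgeR 4.0.16 (quasi-likelihood, TMM, at least 1 CPM in 2 libraries), with R 4.3.3. Adjusted p-values are Benjamini-Hochberg over all entries tested, called under 0.05. The limma fits left 7 (days) or 4 (hairpins) and the edgeR fit 3 residual degrees of freedom. Standard errors from edgeR were derived from its F statistic. Differences on the log2(FPKM + 1) scale understate changes of low genes. Hairpin contrasts assume that lone scrambled libraries vary like the hairpin pairs. Alternatives were DESeq2 1.42.0, limma on log2(TPM + 1), a pseudocount of 0.1, quantile normalization, no filter, a culture or replicate block, v6.5 libraries only and leaving out each library. The fits were tested on simulated data.

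The 4 members and all gene lists were chosen with earlier results of these data known. Named by rule were all members, up to 4 called genes a list by size of difference, the 3 most abundant relatives of each member and the 5 most correlated genes of at least 300 bp. Lists covered POU, Sox, Klf and Myc and Max relatives, Oct4 and Sox2 partners and targets, Myc targets, the LIF and Stat3 pathway, and markers of fibroblasts, neural progenitors, cardiomyocytes, endothelium and smooth muscle, and endoderm. Intervals and floors cover counting error only.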

Additional observations from a re-analysis of the deposited data

Results flagged for a closer look

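The difference between hairpins B and A changed between the early (days 0 and 3) and late (days 6 and 9) libraries for 2 of the 4 genes, by limma's test of that change itself. On the log2(FPKM + 1) scale, late minus early was 1.66 ± 0.16 for Sox2 (adjusted p = 0.00619) and 2.52 ± 0.50 for Klf4 (adjusted p = 0.0274). Sox2 at days 6 and 9 was at 127 and 143 FPKM in hairpin A and at 329 and 412 FPKM in hairpin B cells. Klf4 was at 4.08 and 3.47 FPKM in hairpin A and at 25.4 and 36.0 FPKM in hairpin B cells. With each hairpin in 1 culture, hairpin and culture cannot be told apart. The spread in that test came from the days within early and late, not from separate cultures.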

How the results depend on the processing

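Most values of the members, called or not, stayed on the same side of the threshold. The counts that follow include comparisons not called in the main fit. They also include refits without a library outside the comparison. Klf4 at day 3, for example, stayed at -4.76 without any 1 library of day 6 or 9. Of the values refitted without 1 library each, 411 kept their direction and side of the threshold, 21 lost the call, 15 gained it and 17 uncalled ones changed sign. Of the other alternatives, 185 values stayed, 13 gained the call, 1 lost it and 5 uncalled ones changed sign.

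Without both late hairpin B libraries, an alternative chosen after seeing the data, the log2 differences of Pou5f1 were -1.09 (day 6) and -2.68 (day 9), those of Sox2 -0.59, -1.87 and -1.71 (days 3, 6 and 9) and those of Myc 0.97 and 0.63 (days 3 and 6), all called. With quantile normalization Myc at day 9 was -0.011 and Pou5f1 in hairpins against scrambled at days 0 and 3 was -0.03. Myc between miPS and mESC was called with DESeq2 (1.56) and with no filter (1.54, adjusted p = 0.0215). Klf4 between miPS and the partially reprogrammed lines was called with DESeq2 (-3.37), no filter (-3.36) and limma on TPM (-3.34). Limma on TPM gave 0.095 for Sox2 between miPS and mESC, and -0.16 for Pou5f1 and 0.13 for Klf4 between E14 and v6.5, none of them called. The late minus early difference of Klf4 had an adjusted p of 0.0604 with no filter. The cause of these changes was not tested.

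Culture as a replicate block left the day 9 difference of Pou5f1 at -1.84 and brought its adjusted p to 0.0289, and it changed no other call of the members. It called 1360, 2204 and 4218 entries at days 3, 6 and 9, in place of 852, 1224 and 2337. Deviations of libraries of 1 culture correlated at -0.09 to 0.64. The highest were between days 6 and 9, at 0.45 in scrambled, 0.34 in hairpin A and 0.64 in hairpin B cells. The main fit over days has no culture block and treats those late libraries as independent. The replicate block on E14 and v6.5 called 1240 entries, in place of 82, with a correlation of 0.32 between equal numbers.

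Leaving out 1 library at a time, the log2 differences ranged as follows. They were -0.16 to 0.29 for Pou5f1, -5.25 to -4.44 for Klf4 and 0.80 to 1.19 for Myc (day 3 against day 0). The range was -1.03 to -0.57 for Pou5f1, -1.83 to -1.11 for Sox2, -5.22 to -3.95 for Klf4 and 0.52 to 0.91 for Myc (day 6 against day 0). They were -2.66 to -1.31 for Pou5f1, -1.68 to -0.87 for Sox2, -5.22 to -3.59 for Klf4 and -0.16 to 0.49 for Myc (day 9 against day 0). The range was -0.0063 to 0.0098 for Pou5f1, -0.079 to 0.12 for Sox2 and -0.034 to 0.26 for Myc (hairpins against scrambled, days 0 and 3). They were -0.52 to 0.088 for Myc (hairpins against scrambled, days 6 and 9). The range was 0.94 to 2.48 for Pou5f1, 2.45 to 2.98 for Klf4 and -1.07 to 0.21 for Myc (hairpin B against A at days 6 and 9). They were 0.93 to 2.48 for Pou5f1, 1.79 to 3.24 for Klf4 and -1.42 to -0.14 for Myc (the late minus early difference of hairpins B and A). The range was 0.35 to 1.21 for Klf4 (mESC against MEF). They were 7.38 to 10.04 for Sox2 (partially reprogrammed against MEF). The range was -1.17 to 1.47 for Sox2 (partially reprogrammed against mESC). They were -0.33 to 0.60 for Sox2, 0.77 to 1.63 for Klf4 and 1.47 to 1.71 for Myc (miPS against mESC). The range was -2.44 to -2.41 for Pou5f1, -1.51 to 1.16 for Sox2 and -3.45 to -3.36 for Klf4 (miPS against partially reprogrammed). They were -1.28 to 0.58 for Sox2 and -0.87 to 0.85 for Klf4 (E14 against v6.5). The Klf4 calls at days 3, 6 and 9 were lost without the scrambled library of day 0 and without single libraries of days 0, 3, 6 or 9, and without hairpin B of day 9 Pou5f1 and Sox2 were called at days 6 and 9 and Myc at days 3 and 6. Sox2 at day 6 was also called without hairpin B of day 6.

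Counts of entries called moved more than the members. Without 1 library they ran from 167 to 2241 (day 3), 93 to 4186 (day 6), 85 to 7504 (day 9), 496 to 6055 (hairpin B against A), 1579 to 8502 (mESC against MEF), 961 to 4850 (partially reprogrammed against MEF) and 1954 to 8577 (partially reprogrammed against mESC). With DESeq2, no filter and limma on TPM, miPS against mESC had 178, 222 and 34 in place of 5 (0 with v6.5 only), and E14 against v6.5 had 1138, 1417 and 3805 in place of 82. MiPS against the partially reprogrammed lines had 2560 and 2708 with DESeq2 and no filter, in place of 1657. Limma on TPM called 7924 in place of 4978 between partially reprogrammed lines and mESC. Hairpins against scrambled had 15 and 71 early and late with no filter and 15 and 30 without late hairpin B, in place of 4 and 7. The late minus early test had 796 with no filter, in place of 1895. Groups of 1 to 4 libraries limit these tests, and depth limits Pou5f1 and Sox2 in MEF, with 0 and 8.50 expected counts.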
